A study of Mus musculus with 12 samples.

Results

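The 1491 loci described here are annotated low-complexity repeats of the mouse genome that overlap a deposited m6A interval by at least 1 bp. They were taken by position alone, as the rows of the deposited repeat table whose family is Low_complexity and whose coordinates meet any of 74299 intervals. They make up 1.00% of the 148786 low-complexity loci in the table, which lists 4929385 repeat loci in all. Both tables are on the GRCm39 assembly per the submitters' processing notes, and coordinates are given as deposited.

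Low-complexity repeats are stretches of sequence built mostly from a few kinds of base, such as A-rich, GA-rich or G-rich runs, without the clear repeating unit of a simple repeat. They are not transposable elements and carry no promoter of their own, so reads from them come from whatever transcript runs through them. N6-methyladenosine (m6A) is an internal mark of RNA that is written by the METTL3 and METTL14 methyltransferase and removed by the demethylase ALKBH5. In mouse embryonic stem cells it is known on repeat transcripts that stay on chromatin, where it bears on their turnover and on the state of the chromatin around them.

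The series profiled chromatin-associated RNA of E14TG2a mouse embryonic stem cells by MeRIP-seq, in which fragmented RNA is pulled down with an antibody against m6A and sequenced. The 3 genotypes were WT, Alkbh5 KO (Alkbh5-/-) and Alkbh5 del-cIDR, here ΔcIDR, which lacks the intrinsically disordered region of ALKBH5 that the study calls cIDR. All 3 groups share the E14TG2a background and a medium with LIF, PD0325901 and CHIR99021, which hold the cells in the naive state, and the labels give no rescue line. The deposited tables hold 6 columns, 2 per genotype, read as the immunoprecipitated libraries because the tables are called m6A matrices. WT and KO stand in the column names. ΔcIDR was assigned to the columns called KI because no other genotype was left, and both KO columns carry the name KO6, so they may come from 1 line. Nothing states that replicates were separate cultures, and p-values therefore measure the spread between these libraries only. Input columns were not used here, so more methylation of a transcript and more of the transcript cannot be told apart, nor can fewer expressing cells and less RNA per cell.

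Values are reads multiplied by 1 factor per library, which brings the m6A spike-in RNA to the same signal everywhere. One read was worth 1.45 to 3.33 units of signal, and the libraries held 20922839 to 26267351 reads in repeats. Reads of the m6A spike-in numbered 814 to 1870 per library and were fewer than those of the unmodified spike-in in all 6 libraries. The scale moved every comparison: over the 433487 repeat loci tested, the median log2 change on the deposited scale was -0.31 for KO against WT, 0.35 for ΔcIDR against WT and 0.65 for ΔcIDR against KO. When ERCC reads set the scale instead, the same medians were 0.08, -0.29 and -0.37. Median changes of sets of loci are therefore given relative to the median of all tested repeat loci, which the other scalings left within the spread between libraries. Calls are given on the deposited scale and with each library centred on its median. Log2 changes and folds of single loci are on the deposited scale unless stated, so they include the shift of all tested loci.

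Low-complexity loci under intervals were longer than those elsewhere. Their median length was 60 bp (10 to 16573 bp) against 46 bp for the 147295 low-complexity loci outside intervals and 52 bp for the 9649 simple repeats under intervals. By length class, 553 were under 50 bp, 499 were 50 to 99 bp, 275 were 100 bp to under 200 bp and 164 were 200 bp or more. The share of all low-complexity loci of a class that met an interval went up with length, from 0.654% and 1.08% to 2.19% and 2.93%. A longer locus also offers more bases to a rule of 1 bp, and 782 loci (52.4%) lay wholly inside their interval while 284 had under 50% of their length inside. The 70 loci that met an interval by only 1 to 10 bp had a median of 2.42 reads per library, and the 72 low-complexity loci lying 10 bp or less outside an interval had a median of 3.17 (a description, with no test).

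The intervals around these loci differed with the length of the locus. For 76.0% of the loci no repeat family covered 50% of the interval, against 33.2% of all intervals, and only 2.28% of the loci lay in LINE-1 intervals, which make up 51.2% of all intervals. Intervals that were mostly low-complexity sequence held 174 loci (11.7%), and the others were spread over further families, with 47 loci in SINE/Alu, 34 in LINE-1 and 29 in simple-repeat intervals as the most frequent. Among loci under 50 bp, 90.4% lay in an interval without such a family and 0.904% in an interval that was itself mostly low-complexity sequence. The shares were 68.7% and 14.5% for loci of 100 bp to under 200 bp, and 17.1% and 76.2% for loci of 200 bp or more. Most short loci were thus a small part of an interval that no family fills, and most long ones lay in intervals that were mostly low-complexity sequence. Length fixes part of this split in advance. A locus under 50 bp cannot alone cover 50% of an interval of the median length for its class (402 bp). A locus of 200 bp or more can do so (median interval 274.5 bp). The 1491 loci fell in 1405 intervals, 78 of which held more than 1 of them, so 164 loci share an interval and are not independent of each other.

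Reads were concentrated in short loci. The median locus had 11 reads per library, against 0 for low-complexity loci outside intervals and 3.83 for simple repeats under intervals, a description because intervals were found from reads. The intervals holding the loci had a median of 87.8 reads per library, and other intervals 8.50. Together the loci held 0.942% to 1.26% of all repeat reads and 31.2% to 34.4% of all low-complexity reads. The 100 loci with the highest signal carried 67.2% of the reads. Loci under 50 bp made up 12.1% of the summed length of 167 kb and carried 41.2% to 45.5% of the reads, whereas loci of 200 bp or more made up 44.8% of the length and carried 0.697% to 1.27%. The median signal per kb in WT was 992 and 1176 for loci under 50 bp, 393 and 564 for 50 to 99 bp, 107 and 129 for 100 bp to under 200 bp, and 33.5 and 48.8 for 200 bp or more. This order of the class medians was the same in all 6 libraries. Counting of reads that lie only partly in a locus is not given in the sources used here, and a read longer than a short locus raises its signal per kb. Across the 1491 loci the reads at a locus went with the reads of its interval (Spearman 0.73) and hardly with its own length (Spearman -0.12), both from the same libraries.

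**Figure D1:**
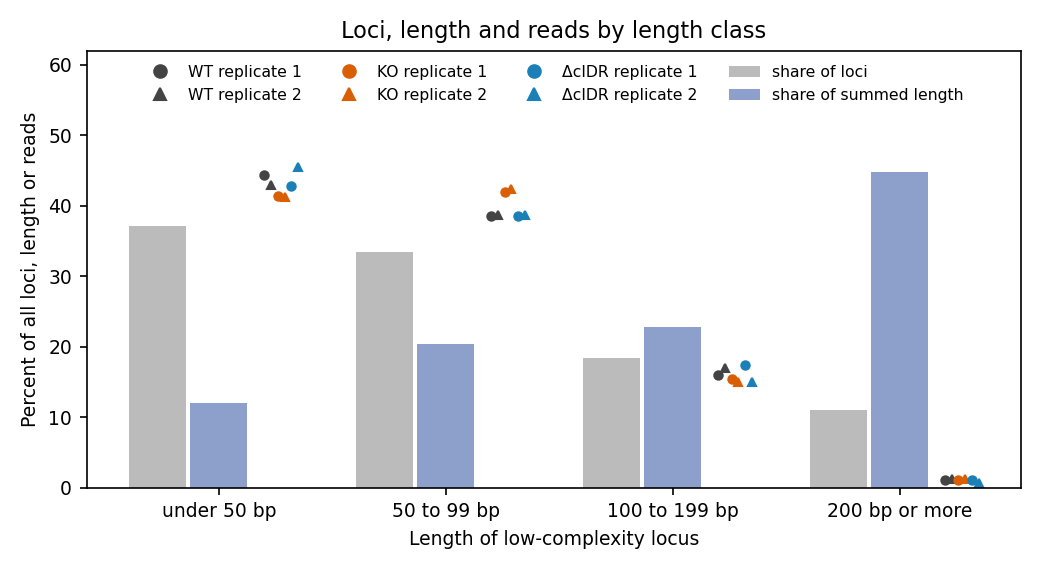
Percent of the 1491 low-complexity loci under intervals (grey bars), of their summed length (blue bars) and of their reads in each of 6 libraries (points, coloured by genotype), for 4 length classes. Loci of 200 bp or more hold 44.8% of the length and at most 1.27% of the reads.

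No read fell on 210 loci (14.1%) in any library. Of these, 128 lay in intervals with at least 10 reads per library, and 60 had under 50% of their length inside the interval. Loci with a mean signal of at least 20 over the 6 libraries were tested, which left 814 of the 1491, and the 677 others have no test. By class 331, 286, 132 and 65 loci were tested, from the shortest to the longest. The counts and medians of change that follow describe these 814, not all 1491.

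The strongest locus was a 49 bp low-complexity stretch at chr1:86457219-86457268, inside a 717 bp interval that no repeat family covered by 50%. Its signal was 13748 and 13958 in WT, 9490 and 5444 in KO, and ΔcIDR had 22619 and 22240, from 3751 to 6957 reads per library. The 3 genotypes did not overlap, with ΔcIDR highest and KO lowest. ΔcIDR exceeded KO 3.12-fold (log2 1.64 ± 0.30 SE, limma adjusted p = 5.71e-06), with log2 1.01 in centred libraries. KO against WT passed only with centred libraries (log2 -0.65, limma adjusted p = 0.000443). On the deposited scale KO against WT gave log2 -0.95 ± 0.30 (limma adjusted p = 0.0594).

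The locus at chr4:152416850-152416883 is 33 bp long and touches the end of a 200 bp interval by 3 bp. Signal was 13320 and 12655 in WT, 10443 and 6312 in KO, and ΔcIDR had 19795 and 21274. On the deposited scale the groups were again apart, in the order KO, WT, ΔcIDR. In reads KO (5306 and 4349) overlapped WT (5752 and 5157). KO against WT passed only with centred libraries (log2 -0.38, limma adjusted p = 0.0415). The log2 change of ΔcIDR against KO was 1.34 ± 0.30 (limma adjusted p = 0.000341). It was 1.39 and 1.29 without ΔcIDR replicate 1 or 2, and the call was lost in both fits. The 43 bp locus at chr11:77186181-77186224 had 8758 and 8257 in WT, 4692 and 3000 in KO, and ΔcIDR had 12333 and 14836. Of the 8 loci with the highest signal it alone passed for KO against WT on the deposited scale (log2 -1.18 ± 0.30, limma adjusted p = 0.00850), 2.27-fold lower in KO. That call ended without either WT library (adjusted p = 0.424 and 0.519) or either ΔcIDR library (0.141 for both), while ΔcIDR against KO at this locus, 3.60-fold, passed in every fit that left out 1 library.

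Not every strong locus kept that order. At chr8:57967072-57967162, 90 bp long, signal was 12308 and 12525 in WT, 15770 and 9406 in KO, and ΔcIDR had 16637 and 17563. The KO libraries lay on either side of WT, and no comparison passed on either scale. The 165 bp locus at chr2:5962458-5962623, the longest of the 8, did keep the order KO, WT, ΔcIDR on the deposited scale. Its signal was 8668 and 9070 in WT, 7197 and 5387 in KO, and ΔcIDR had 16541 and 14938. In reads KO (3657 and 3712) overlapped WT (3743 and 3696). KO against WT did not pass on either scale (limma adjusted p = 0.437 deposited and 0.298 centred). ΔcIDR was 2.52-fold above KO (log2 1.34 ± 0.30, limma adjusted p = 0.000328; 0.128 and 0.0759 without ΔcIDR replicate 1 or 2, and 0.0603 on the ERCC scale). In all 8 the ΔcIDR libraries lay above both WT libraries on the deposited scale, and none of the 8 passed for ΔcIDR against WT on either scale.

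**Figure D2:**
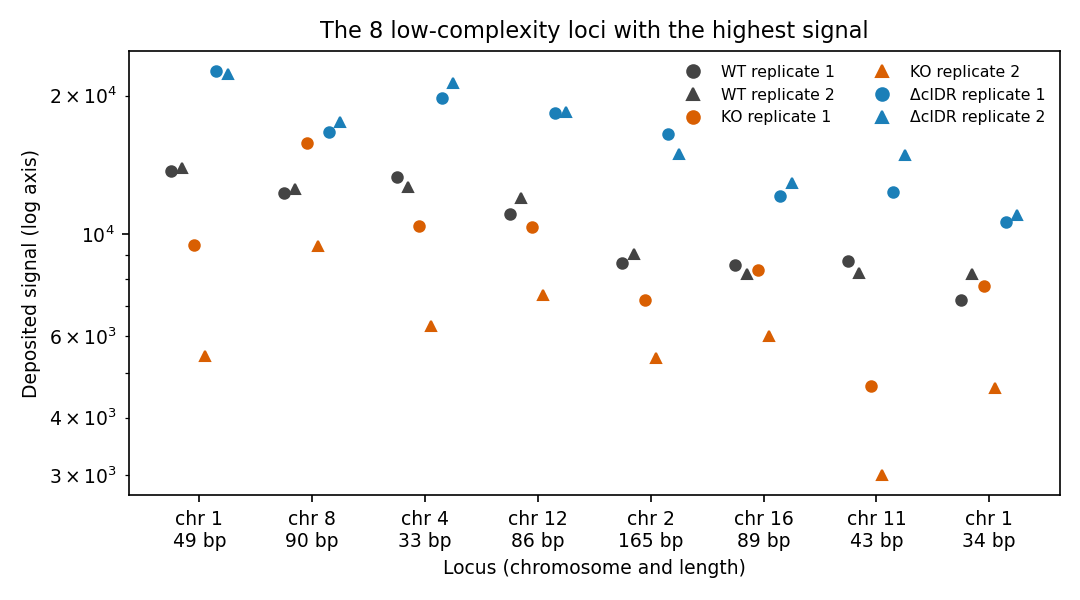
Deposited signal (log axis) of the 8 low-complexity loci with the highest mean signal, in 6 libraries. On this scale both ΔcIDR libraries lie above both WT libraries in each locus, and KO replicate 2 is the lowest library. The order includes the factor per library. One read is worth 1.45 units in KO replicate 2, 2.32 and 2.45 in WT, and 3.33 and 3.20 in ΔcIDR. In reads the order does not hold at every locus. The chr8:57967072-57967162 locus had 5315 and 5104 reads in WT, 8013 and 6481 in KO, and ΔcIDR had 4990 and 5494.

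The 5 longest loci show the other end of the range. The longest, chr9:121052073-121068646, is 16573 bp long, and the 200 bp interval inside it holds 0 reads in every library. Its whole length had 10 and 4 reads in WT, 12 and 13 in KO, and ΔcIDR had 4 and 5. The next, chrY:9890098-9891838 at 1740 bp and chr10:56617406-56618646 at 1240 bp, had 0 to 5 and 0 to 8 reads per library. None of the 5 reached the signal needed for a test. Among tested loci the median signal was 191 under 50 bp and 47.5 at 200 bp or more.

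The comparison of KO with WT asks what loss of the demethylase did to m6A signal at these loci. Most loci that passed the test were lower in KO: 51 of 814 were lower and 1 was higher on the deposited scale (limma, adjusted p at most 0.05). Among all repeat loci tested 2.41% were lower and 0.165% higher. With centred libraries 60 were lower and 15 higher, against 2.09% and 1.26% of all tested loci, and 43 loci were lower on both scales. When ERCC reads set the scale, 45 (5.53%) were lower and 25 (3.07%) higher, against 1.60% and 1.95% of all tested loci. The median log2 change was -0.17 ± 0.06 SE relative to all tested repeat loci, and 36.4% of the loci lay above that median. The same relative median was -0.21 for simple repeats under intervals, -0.08 for low-complexity loci outside intervals and -0.02 for all loci under intervals. Tested low-complexity loci under intervals had a higher median signal (132) than all tested loci (52.5). Among loci with a signal of at least 100, 7.74% of 465 were lower in KO, against 4.13% of all tested loci of that signal, 7.22% of all loci under intervals and 9.57% of simple repeats under intervals. On the deposited scale the share of lower calls was thus near that of any locus of this signal under an interval. With centred libraries 11.2% of these 465 loci were lower and 2.58% higher. The shares were 8.85% and 7.57% for all loci of this signal under intervals, and 11.7% and 2.00% for such simple repeats.

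The counts changed with single libraries. Without WT replicate 1 the loci called for KO against WT fell to 6 and without WT replicate 2 to 0 (limma, with 74 of them at an unadjusted p under 0.05), without KO replicate 1 they numbered 259 and without KO replicate 2 25, and without ΔcIDR replicate 1 or 2 they were 20 or 21. With centred libraries the same range was 15 to 91. The relative median stayed negative in each case, between -0.26 and -0.06.

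The 1 locus called higher in KO on the deposited scale is chr15:102870574-102870783, 209 bp long. Signal was 53.3 and 118 in WT, 320.8 and 198.8 in KO, and ΔcIDR had 23.3 and 12.8. All 3 genotypes were apart, with KO highest and ΔcIDR lowest, the reverse of the order at the strongest locus. KO exceeded WT 3.13-fold (log2 1.65 ± 0.45, limma adjusted p = 0.0191) and ΔcIDR was 4.20-fold below WT (log2 -2.07 ± 0.45, adjusted p = 0.0136). Leaving out any 1 of the 4 KO and WT libraries took the first call away (adjusted p = 0.0770 to 0.593), and leaving out any 1 of the WT or ΔcIDR libraries took the second (0.0502 to 0.793), as did edgeR on the deposited scale (0.0804). The fall from KO to ΔcIDR, 13.2-fold (adjusted p = 2.81e-13), passed in each such fit.

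Among the loci lower in KO, chr19:28508570-28508610 (40 bp, in an 823 bp interval) had 94.9 and 157 in WT, 23.6 and 21.8 in KO, and ΔcIDR had 227 and 211. KO lay below and ΔcIDR above WT in each library, from 12 and 15 reads in KO. KO was 5.03-fold below WT (log2 -2.33 ± 0.44, limma adjusted p = 5.57e-05), a call lost only without WT replicate 2 (adjusted p = 0.183) among the libraries left out. The 205 bp locus at chr13:114343500-114343705 had 127 and 145 in WT, 37.4 and 20.3 in KO, and ΔcIDR had 167 and 125, so KO stood alone below the others. It was 4.65-fold below WT (log2 -2.22 ± 0.44, adjusted p = 0.000191; 0.117 without WT replicate 2).

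The 1095 bp locus at chr13:14034889-14035984 is 1 of 5 loci of 200 bp or more that were lower in KO, and its interval is low-complexity sequence. It had 81.0 and 51.5 in WT, 9.84 and 14.5 in KO, and ΔcIDR had 46.7 and 54.3. KO was apart from the other 2 genotypes, 4.77-fold below WT (log2 -2.25 ± 0.56, limma adjusted p = 0.00628), and the call ended without either WT library (adjusted p = 0.359 and 0.121).

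The largest log2 changes belonged to loci with few reads, such as chr12:76319242-76319364. It had 7 and 18 reads in WT, 0 and 1 in KO, and ΔcIDR had 9 and 14. No fold is given there, and with centred libraries its limma adjusted p was 0.0537. The 47 bp locus at chr9:22326668-22326715 had 39.4 and 93.2 in WT, 15.7 and 8.71 in KO, and ΔcIDR had 86.7 and 44.8. KO lay below both other genotypes, 4.55-fold below WT (log2 -2.19 ± 0.55, adjusted p = 0.00718), and the call was lost without WT replicate 2 (0.676) or KO replicate 2 (0.166).

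In the fit of all 6 libraries ΔcIDR differed from WT at few single loci, although the loci shifted up as a group. On the deposited scale 4 of 814 were lower and 0 higher (limma, adjusted p at most 0.05), against 0.0198% and 0.0452% of all tested loci. At an unadjusted p under 0.05 there were 234, against 43049 of all 433487 loci tested, and edgeR called 3 lower and 0 higher. With centred libraries 5 were lower and 2 higher, against 0.0547% and 0.0411%. The relative median was 0.22 ± 0.08, with 70.3% of loci above the median of all tested loci. It was 0.24 for simple repeats under intervals, 0.05 for low-complexity loci outside intervals and -0.02 for all loci under intervals. With 1 library left out the relative median of the low-complexity loci under intervals spanned 0.12 to 0.31, and the number of calls on the deposited scale changed. Leaving out either KO library, which is no part of this contrast, raised that number, mostly with loci higher in ΔcIDR. The 3 genotypes share 1 estimate of the spread. No such rise was seen with centred libraries.

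All 4 loci lower in ΔcIDR than WT were the chromosome 15 locus above and 3 loci near the end of chromosome Y. The 5 tested loci of that chromosome lie within 86.9 kb, between chrY:90752929-90753010 and chrY:90839783-90839832, where the last repeat of the table ends at 90855711. The highest of them, chrY:90838039-90838068 (29 bp), had 287 and 282 in WT, 236 and 329 in KO, and ΔcIDR had 30.0 and 6.39. WT and KO overlapped and ΔcIDR was 17.5-fold below WT (log2 -4.13 ± 0.42, limma adjusted p = 6.73e-18). At chrY:90837544-90837581 signal was 71.8 and 110 in WT, 140 and 144 in KO, and ΔcIDR had 0 and 9.59. The locus at chrY:90755579-90755646 had 153 and 179 in WT, 327 and 219 in KO, and ΔcIDR had 93.4 and 28.8, with the groups apart and KO highest. All 5 were lower in ΔcIDR than in KO, and at chrY:90755579-90755646 that call was lost without ΔcIDR replicate 2 (adjusted p = 0.0735). The third locus called against WT, chrY:90839783-90839832 (49 bp), had 69.5 and 115 in WT, 128 and 112 in KO, and ΔcIDR had 23.3 and 3.20, and its call (log2 -3.00 ± 0.50, limma adjusted p = 3.23e-05) was lost without WT replicate 2 (0.156) or ΔcIDR replicate 2 (0.621).

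The drop was shared by other repeats of the same stretch. Relative to all tested loci, the 5 low-complexity loci had a median of -3.34 for ΔcIDR against WT, and 60 other tested repeat loci within the 86.9 kb had -1.31. The 321 tested loci on the rest of chromosome Y had -0.08. For KO against WT the medians were 0.97, 0.56 and -0.12. The other 14 chromosome Y loci under intervals had a median of 0.417 reads and no test. Low-complexity loci and other repeats of this stretch thus moved in the same direction in both comparisons, and the number of copies of the stretch in each line was not tested.

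**Figure D3:**
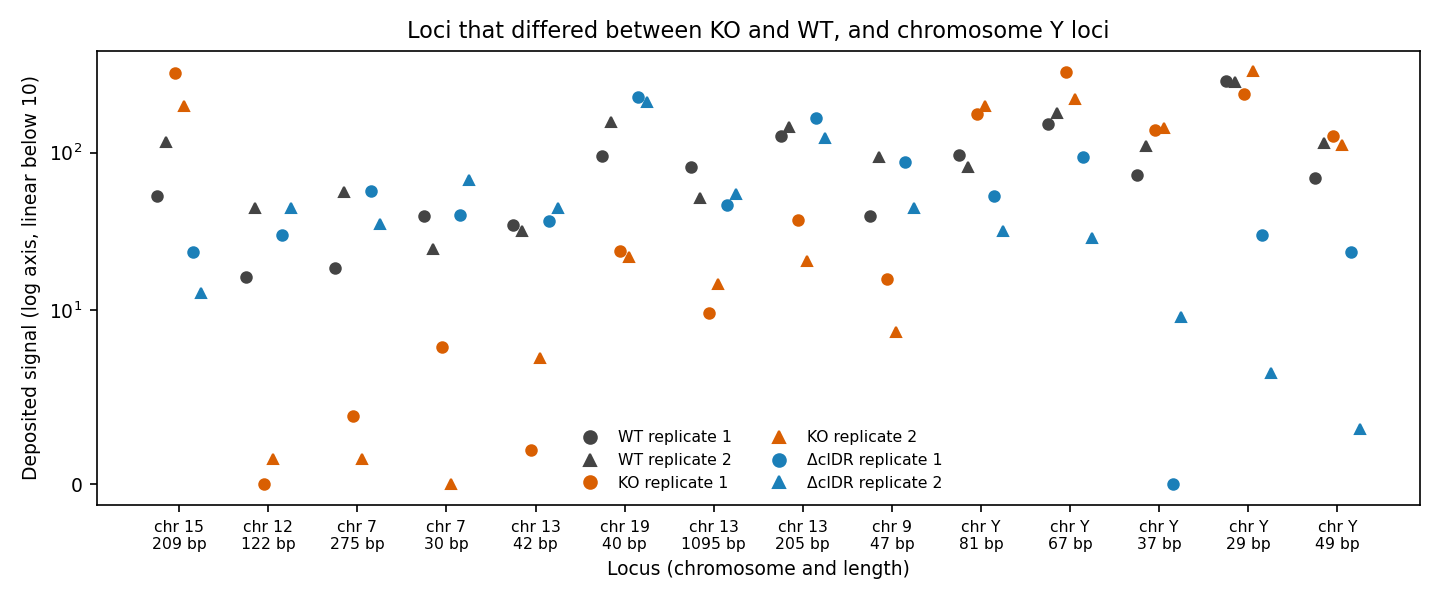
Deposited signal (axis logarithmic above 10 and linear below) in 6 libraries for the locus called higher in KO than WT on the deposited scale, the 8 loci with the largest fall in KO, and the 5 tested chromosome Y loci. KO lies below WT and ΔcIDR at the 8 loci, and ΔcIDR lies below WT and KO at the chromosome 15 and Y loci.

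The contrast of the 2 mutants was the widest. ΔcIDR exceeded KO at 380 of 814 loci and was lower at 8 on the deposited scale (limma, adjusted p at most 0.05), against 18.4% and 0.711% of all tested loci. With centred libraries 198 were higher and 26 lower, against 5.85% and 4.59% of all tested loci, and all 198 were also called on the deposited scale. When ERCC reads set the scale, 75 (9.21%) were higher and 89 (10.9%) lower, so the split of the calls changed with the scale. Of all tested loci 2.54% were higher and 14.2% lower on that scale. The relative median was 0.35 ± 0.05, against 0.44 for simple repeats under intervals, 0.13 for low-complexity loci outside intervals and -0.03 for all loci under intervals. Calls on the deposited scale were 257 without KO replicate 2, 70 when ΔcIDR replicate 1 was left out and 145 when ΔcIDR replicate 2 was. Among loci with a signal of at least 100, 61.7% of the low-complexity loci under intervals were higher in ΔcIDR, 66.0% of simple repeats under intervals, 48.6% of low-complexity loci outside intervals, 37.0% of all loci under intervals and 31.6% of all tested loci.

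The comparisons with WT and between mutants share libraries, and values for the same locus are given side by side only. The 29 bp locus at chr6:91210871-91210900 had 78.7 and 101 in WT, 41.3 and 14.5 in KO, and ΔcIDR had 200 and 246. The genotypes were apart in the order KO, WT, ΔcIDR. ΔcIDR was 8.37-fold above KO (log2 3.07 ± 0.44, limma adjusted p = 2.00e-09) and KO 3.40-fold below WT (adjusted p = 0.00739; 0.140, 0.448 and 0.237 without WT replicate 1, WT replicate 2 or KO replicate 2), while ΔcIDR against WT gave log2 1.30 ± 0.44 and did not pass (adjusted p = 0.324). At chr14:119376091-119376150, 59 bp long, signal was 32.4 and 63.8 in WT, 11.8 and 14.5 in KO, and ΔcIDR had 153 and 112. This locus followed the same order, 8.81-fold higher in ΔcIDR than KO (adjusted p = 1.92e-07).

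Of the 8 loci lower in ΔcIDR than KO, 5 are the chromosome Y loci and 1 the chromosome 15 locus. Another is chr1:12893143-12893188 (45 bp), with 25.5 and 54.0 in WT, 122 and 66.8 in KO, and ΔcIDR had 20.005 and 38.4. KO lay above both other genotypes there, 3.10-fold above ΔcIDR (log2 -1.63 ± 0.51 for ΔcIDR against KO, limma adjusted p = 0.0124). Without KO replicate 1 or ΔcIDR replicate 1 the call was lost (adjusted p = 0.131 and 0.252).

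**Figure D4:**
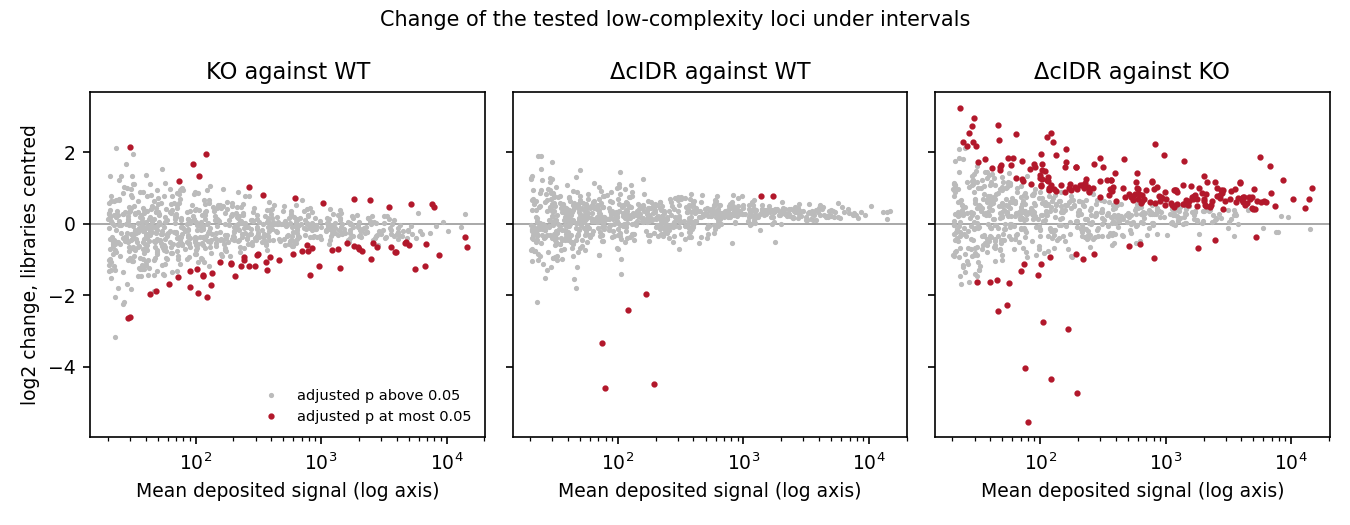
Log2 change (vertical) against mean deposited signal (log axis) for the 814 tested low-complexity loci under intervals in 3 comparisons, with each library centred on its median. Red points have an adjusted p of at most 0.05 (limma): 15 higher and 60 lower for KO against WT, 2 and 5 for ΔcIDR against WT, and 198 and 26 for ΔcIDR against KO.

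Errors of the class medians were widest for loci of 200 bp or more, and no test of a class difference was run. Medians of that class lay within error of the shortest class for KO against WT and for ΔcIDR against KO. For ΔcIDR against WT the longest class minus the shortest was -0.38, a gap slightly larger than the error of the longest class. For KO against WT the relative medians from the shortest to the longest class were -0.17 ± 0.03, -0.14 ± 0.05, -0.23 ± 0.11 and -0.20 ± 0.14. For ΔcIDR against WT they were 0.27 ± 0.03, 0.26 ± 0.06, 0.10 ± 0.20 and -0.10 ± 0.35. For ΔcIDR against KO they were 0.42 ± 0.01, 0.35 ± 0.04, 0.36 ± 0.17 and 0.15 ± 0.33. On the deposited scale 49.8%, 50.3% and 43.9% of the 3 shorter classes and 13 of 65 loci of the longest were higher in ΔcIDR than KO, against 18.4% of all tested loci, so the longest class was near the background share. These shares stand beside median signals of 191, 179, 105 and 47.5.

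The difference between the longest and shortest class in ΔcIDR was seen in 1 of its 2 libraries. Loci of 200 bp or more had a library median of 0.29 in ΔcIDR replicate 1 and -0.36 in ΔcIDR replicate 2, relative to their WT mean, and 50 of 65 were lower in replicate 2. Loci under 50 bp had 0.25 in both libraries, and 164 of 331 were lower in replicate 2. The longest class minus the shortest was -0.38 for ΔcIDR against WT, and 0.04 without ΔcIDR replicate 2. Replicates also lay furthest apart in the longest class: the median absolute log2 difference between ΔcIDR replicates was 0.71 there and 0.27 in the shortest class, against 0.40 for all tested loci. Long simple repeats under intervals (-0.13 ± 0.28) and long low-complexity loci outside intervals (-0.20 ± 0.24) had like medians for ΔcIDR against WT.

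**Figure D5:**
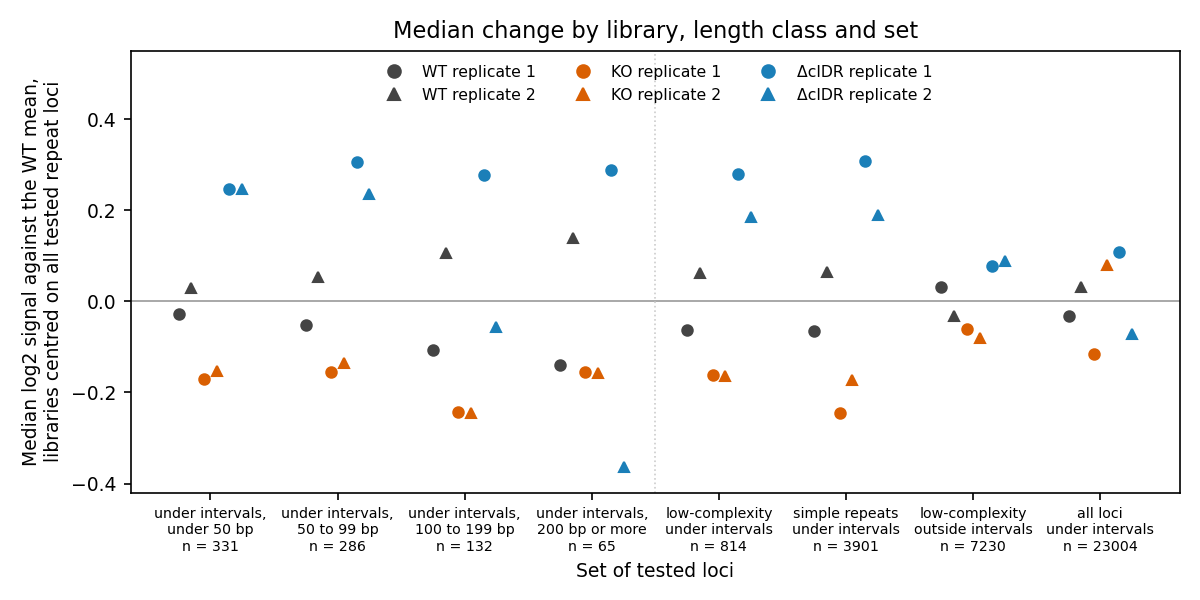
Median log2 signal of tested loci against their WT mean in each of 6 libraries, with libraries centred on all tested repeat loci, for 4 length classes of low-complexity loci under intervals (left) and 4 whole sets (right). WT points are mirror images because they are taken from their own mean, and the ΔcIDR replicates part most in the class of 200 bp or more, at 0.29 and -0.36.

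Loci were also divided by the kind of interval, with no test of the difference. Loci in intervals without a main family (719 tested) had relative medians of -0.16 for KO against WT and 0.24 for ΔcIDR against WT, and loci in low-complexity intervals (73 tested) had -0.33 ± 0.17 and -0.10 ± 0.37. The change of a locus followed that of its interval: over 812 loci tested in both tables, Spearman correlations of the log2 changes were 0.87, 0.75 and 0.89, from the same libraries and in part the same reads. The median difference between a locus and its interval was at most 0.04 on the log2 scale. Set against all 37759 tested intervals, the intervals of these loci had relative medians of -0.07 for KO against WT, 0.11 for ΔcIDR against WT and 0.19 for ΔcIDR against KO. These are smaller than the -0.17, 0.22 and 0.35 of the loci against all tested repeat loci.

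Chromosomes 6 and 8 differed from the rest in KO. The 43 tested loci on chromosome 6 had a relative median of 0.28 for KO against WT and the 51 on chromosome 8 had 0.18, where all tested repeat loci had 0.34 and 0.30. Off chromosomes 6, 8 and 11 the low-complexity loci had -0.21 and all tested loci -0.05. Set against the tested loci that remain off these chromosomes, the low-complexity loci had a relative median of -0.16, and -0.17 with all chromosomes. Of the 52 loci called for KO against WT, 44 lay off these chromosomes, 43 of them lower in KO. The chromosome-wide values move with the KO libraries, and their cause was not tested.

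Summed over all 1491 loci, with no filter, the loci took 1.04% ± 0.06 of repeat reads in WT, 0.945% ± 0.003 in KO and 1.21% ± 0.06 in ΔcIDR (SD, n = 2). The libraries were 1.01% and 1.08%, 0.942% and 0.947%, and 1.26% and 1.17%, so the genotypes did not overlap. Log2 ratios of the shares were -0.14 ± 0.05 SE for KO against WT, 0.22 ± 0.07 for ΔcIDR against WT and 0.36 ± 0.05 for ΔcIDR against KO. An exact permutation test of 2 libraries against 2 cannot go below p = 0.3333, and none is given. On the deposited scale the summed signal was 510283 and 581530 in WT, 487058 and 320728 in KO, and ΔcIDR had 876505 and 809910. ΔcIDR was apart from the others, and the KO libraries differed by more than the gap between KO and WT.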

How the data were processed

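Chromatin-associated RNA was profiled by MeRIP-seq. Tools listed by the submitters' processing notes, without role or version, are HISAT2, featureCounts, MACS2, bedtools, fastp, Picard and SAMtools, beside GRCm39. The deposited values are a signal scaled to the spike-in by the authors, per interval in 1 table and per repeat locus in the other. Of the values for repeat loci, 100% gave whole reads within 1e-06 after division by 1 factor per library. Counts recovered this way were used for depth and edgeR only.

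Overlaps were found with bedtools 2.31.1. limma 3.58.1 was run on log2(signal + 2) (R 4.3.3, 1 mean per genotype over 6 libraries, trended prior) for all repeat loci with a mean signal of at least 20, with Benjamini-Hochberg adjustment over the 433487 tested and calls at 0.05. This scale shrinks the folds of loci with low signal. Standard errors of relative medians come from medians per library. edgeR 4.0.16 (quasi-likelihood, on the deposited scale and with TMM), other scalings, pseudocounts, minimums, overlaps and leaving out each library were tried. The script was tested on simulated data. Loci named were the 8 with the highest signal, the 5 longest and, per comparison and direction, up to 8 with the largest change among called loci whose libraries did not overlap, at most 1 per interval, and where under 3 passed, the 3 lowest in p. The locus chrY:90837544-90837581 shares an interval with another and was chosen after its values were seen. The text gives a selection. The members, lists and tests were chosen with earlier results of these data known. Same-numbered libraries did not deviate together, and replicates were treated as unpaired. The coordinate base is not stated, and no GRCm39 sequence or gene annotation was used here.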

Additional observations from a re-analysis of the deposited data

How the results depend on the processing

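In all 3 comparisons the relative median of the low-complexity loci kept its direction under every alternative run, and so did the share of repeat reads with each library left out; counts of calls varied. The cause of the changes below was not tested. For KO against WT, the 52 calls became 83 with reads outside intervals as the scale, 87 with edgeR and TMM, 0 without a minimum signal (limma, 205 of 1281 at an unadjusted p under 0.05) and 0 to 259 when 1 library was left out. The relative median was -0.29 without a minimum and -0.26 to -0.060 with 1 library left out. The longest class minus the shortest, -0.03, turned to 0.0025 with a pseudocount of 10, 0.024 and 0.037 with minimums of 10 and 50, 0.0037 without one, and spanned -0.16 to 0.16 with 1 library left out. The summed signal, log2 -0.46, was -0.061 on the ERCC scale and -0.76 to -0.16 with 1 library left out. For ΔcIDR against WT, the 4 calls became 7 with centred libraries, 9 on the ERCC scale, 8 with TMM, 2 with at least 50% of the locus inside, 0 without a minimum (limma, 241 at an unadjusted p under 0.05) and 2 to 151 with 1 library left out. The relative median was 0.41 without a minimum and 0.12 to 0.31 with 1 library left out. The class difference spanned -0.61 to 0.041 with 1 library left out. The summed signal, log2 0.63, was 0.29 with centred libraries, 0.23 with reads outside intervals and -0.028 on the ERCC scale, a reversal. For ΔcIDR against KO, the 388 calls became 224 with centred libraries, 164 on the ERCC scale, 214 with reads outside intervals, 231 with TMM, 33 without a minimum and 70 to 532 with 1 library left out. The relative median was 0.62 without a minimum and 0.27 to 0.43 with 1 library left out, and the class difference spanned -0.66 to -0.0076. The summed signal, log2 1.09, was 0.46 with centred libraries, 0.033 on the ERCC scale and 0.38 with reads outside intervals. Replicate numbers did not pair the libraries. Over all tested loci, correlations of the deviations of same-numbered libraries were 0.03 (WT and KO), -0.10 (WT and ΔcIDR) and -0.03 (KO and ΔcIDR). Over the tested low-complexity loci under intervals they were 0.05, -0.32 and -0.10. There, WT and ΔcIDR libraries of the same number tended to deviate in opposite directions. With the replicate block 30 loci were called for KO against WT, 4 for ΔcIDR against WT and 323 for ΔcIDR against KO, and 194 for the last with centred libraries and the block. Over 40 called loci and comparisons, 544 of 706 values kept their call and 160 lost it, 34 of these without a minimum. On the ERCC scale 2 reversed for ΔcIDR against KO, chr16:91451570-91451659 at log2 -0.24 and chr1:86278748-86278782 at -0.21. Centred libraries with 1 left out, the centred block, and leaving out chromosomes 6, 8 and 11 were chosen after seeing the data. Having 2 libraries per genotype and a median of 11 reads per locus limit what can be called.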
